A study of Mus musculus with 4 samples.

Results

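Open chromatin at 10 genes of the circadian clock was described in mouse colonic organoids, from 1 list of ATAC-seq peaks. The genes were Clock and Arntl, Per1, Per2 and Per3, Cry1 and Cry2, and Dbp, Tef and Hlf. A region was counted for a gene when it held a summit inside the gene or within 1000 bp of it. Regions whose strongest summit was over 1000 bp from every protein-coding gene end were added when the nearest such end, within 100 kb, belonged to the gene. In this way 103 of 113404 regions were taken, 75 of them with 127 summits inside the genes or within 1000 bp, and 28 farther out.

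ATAC-seq marks accessible DNA through the insertions of the transposase Tn5. There were 4 libraries of wild-type (WT) colonic epithelium grown as organoids, self-organising cultures of epithelial cells, in a medium with Wnt, EGF, Noggin and R-spondin, 1 library in each group: colitis with 10 µM T-5224 for 24 h, colitis with 0.1% DMSO for 24 h, control with 10 µM T-5224 for 24 h, and control with 0.1% DMSO for 24 h. Colitis organoids came from mice with chronic colitis and control organoids from healthy mice, and T-5224 is an inhibitor of the transcription factor AP-1. All organoids were frozen viable and thawed before nuclei were taken. Library names carry 1 code for both colitis libraries and another for both control libraries; the number of mice, the time of day at harvest and any synchronisation of the cultures are not stated in the labels. The peak list gives no value for a single library, so neither T-5224 with DMSO nor colitis with control was compared, and no test between groups was possible. There are no replicates behind any value, and a site open in few cells cannot be told apart from a site weakly open in many. Each value below is the authors' fold enrichment at a summit, the ratio of the pileup of sequenced fragments or reads to a background that was the same for every base. Intervals are exact Poisson 95% intervals of the pileup, for counting error alone. Depth per library is unknown; summits had pileups from 17 to 8197 over an expected background of 7.63.

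The labelled cell type was checked with marker genes. All 8 colonic epithelium markers examined had a summit inside the gene or within 1000 bp, from 24.5-fold at Krt20 to 59.1-fold at Krt8. Of the leukocyte markers, Itgam had a summit (6.96-fold) and Ptprc and Cd3e had none. Of 4 fibroblast and endothelium markers, Col1a2 had none and Col3a1, Pecam1 and Cdh5 had 3.25-fold to 8.35-fold.

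The clock of mammalian cells is a loop of transcription. CLOCK and BMAL1, the product of Arntl, bind together to E-box sequences and activate the Per and Cry genes, whose proteins enter the nucleus and repress that activity. DBP, TEF and HLF are related PAR bZIP factors that bind D-box sequences and carry the rhythm to output genes, and Arntl itself is set by ROR activators and REV-ERB repressors. Intestinal epithelium has a clock of its own, known to time proliferation, nutrient uptake and barrier functions.

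All 10 clock genes were open. Each had a summit within 1000 bp of an outer end of the gene, as had 64.3% of all 21631 protein-coding genes. At 8 of the 10 the strongest summit in the gene or within 1000 bp of it reached 40-fold or more, against 20.5% of protein-coding genes. The median of this value was 53.6-fold over the 10 genes and 17.4-fold over all protein-coding genes, in which genes without a summit count as 0. Read at the outer ends alone, the medians were 47.8-fold and 9.62-fold, and 6 of the 10 genes reached 40-fold, against 17.2% of protein-coding genes. The line of 40-fold was chosen after the values were seen. Gene length was not matched: the median span was 45.5 kb for the 10 genes and 17.3 kb for all protein-coding genes. The genes are not replicates, so these are descriptions of 1 list.

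Per2 was highest with 71.0-fold (65.4 to 76.8), followed by Arntl with 67.2-fold (61.9 to 72.9), Per1 with 67.0-fold (61.7 to 72.7) and Cry2 with 65.2-fold (59.9 to 70.8). The intervals of these 4 genes overlap, so their order is not resolved. Per3 had 57.4-fold (52.4 to 62.7), and its interval overlaps those of Arntl, Per1 and Cry2 above it and of Dbp and Tef below it. Dbp had 49.7-fold (45.1 to 54.7), Tef 49.2-fold (44.6 to 54.1) and Cry1 45.9-fold (41.5 to 50.7), again with overlapping intervals. Clock, with 33.7-fold (30.0 to 37.8), lay below Cry1 beyond the intervals, and Hlf, with 13.2-fold (10.9 to 15.9), lay below Clock in the same way. Among all protein-coding genes, Per2 stood at the 98.1st percentile of the strongest summit and Hlf at the 45.3rd. Arntl and Per1 stood at the 97.2nd and 97.1st percentiles and Clock at the 71.8th.

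**Figure D1:**
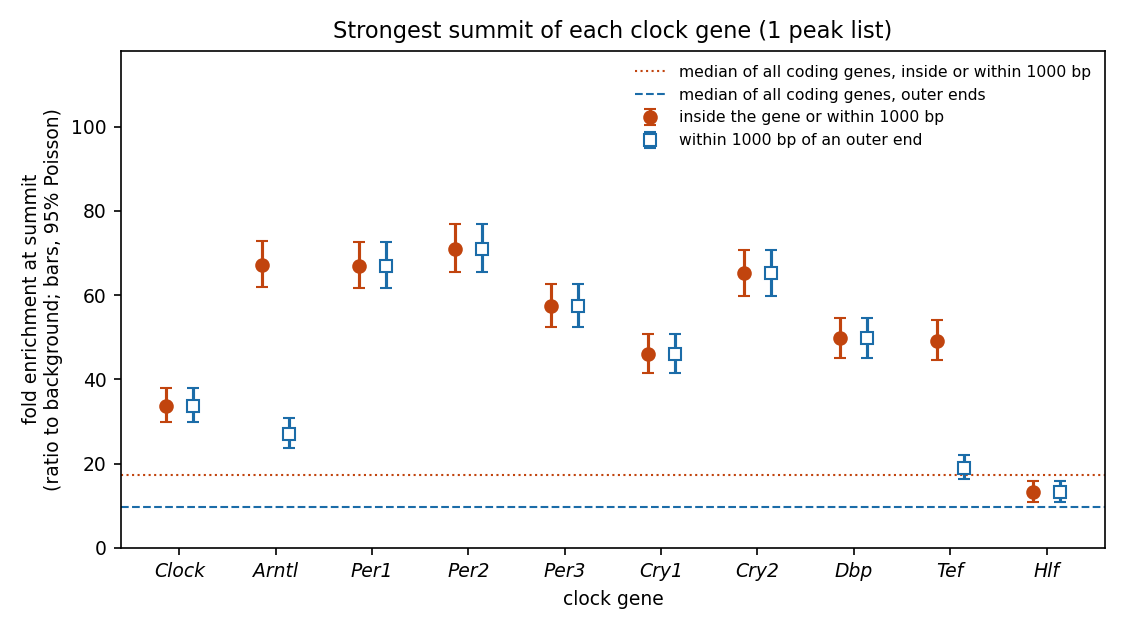
The fold enrichment of the strongest summit (vertical axis, ratio to background) is plotted for each of the 10 clock genes, inside the gene or within 1000 bp (filled circles) and within 1000 bp of an outer end (open squares), with 95% Poisson intervals; the lines are medians of all protein-coding genes. Circle and square are the same summit in 8 genes, while Arntl (67.2 and 27.0) and Tef (49.2 and 19.0) have their strongest summit away from the outer ends, and Hlf lies below the dotted median of 17.4.

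Annotated transcription starts were available for 9 of the 10 genes, 14 starts in all, from RefSeq on GRCm38.p6, the assembly of mm10; Per2 had none in that table. All 9 had a summit within 1000 bp of a listed start, as had 64.5% of protein-coding genes. At all 9 genes the strongest summit near a listed start lay before the start and within 300 bp of it, from 25 bp at Hlf to 286 bp at Dbp, with a median of 140 bp. Of 11148 protein-coding genes with a summit within 1000 bp of a listed start, the strongest lay before the start in 61.2% and within 300 bp before it in 53.7%, with a median over all of them of 34 bp before the start. The line of 300 bp lies just beyond the largest of the 9 distances, so that all 9 pass it follows in part from the line. In 8 of the 9 genes the summit at a listed start was also the strongest of the whole gene, against 52.4% of protein-coding genes with a listed start. The exception was Per1. Sequences before some of the starts are given next, because the strongest summit near a listed start falls in or beside them. The bases around all 14 starts were searched for motifs of clock factors, which only some of them hold.

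The canonical E-box CACGTG, the site of CLOCK and BMAL1, was found in the 300 bases around a listed start (250 before it and 50 from it on) at Per1, Cry1 and Tef, 3 of 9 genes and 4 of 14 start windows. It was present in 9.02% of the 17274 protein-coding genes with a listed start, to which all gene shares of motifs below refer, and 7.15% of all 32851 start windows. All matches here were searched on both strands. The match lies 60 to 55 bases before the start at Cry1, 166 to 161 at Per1, and 127 to 122 and 138 to 133 at the 2 starts of Tef. Its distance to the nearest summit is 82.5 bp at Cry1 (45.9-fold), 52.5 bp at Per1 (37.4-fold), and 74.5 bp (19.0-fold) and 46.5 bp (49.2-fold) at Tef. The 250 bases before each of these starts are shown with the E-box in capitals, at chr10:85185055-85185304 (minus strand) for Cry1, chr11:69098699-69098948 (plus) for Per1, and chr15:81802423-81802672 and chr15:81811164-81811413 (plus) for Tef, on GRCm38.
Cry1: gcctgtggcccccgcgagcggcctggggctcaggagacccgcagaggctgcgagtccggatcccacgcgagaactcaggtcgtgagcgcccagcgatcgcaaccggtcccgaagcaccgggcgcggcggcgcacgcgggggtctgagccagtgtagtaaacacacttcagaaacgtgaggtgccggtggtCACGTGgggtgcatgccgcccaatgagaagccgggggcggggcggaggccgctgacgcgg
Per1, start 1: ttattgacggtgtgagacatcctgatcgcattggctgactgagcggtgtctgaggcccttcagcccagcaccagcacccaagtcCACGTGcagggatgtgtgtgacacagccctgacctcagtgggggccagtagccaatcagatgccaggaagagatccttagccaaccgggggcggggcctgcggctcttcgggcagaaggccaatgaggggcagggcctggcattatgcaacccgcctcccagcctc
Tef, start 1: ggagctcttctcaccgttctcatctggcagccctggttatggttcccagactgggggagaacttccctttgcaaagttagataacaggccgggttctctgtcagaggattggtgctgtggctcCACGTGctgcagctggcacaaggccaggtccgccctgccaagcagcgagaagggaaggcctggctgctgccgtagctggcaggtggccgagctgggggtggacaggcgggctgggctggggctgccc
Tef, start 2: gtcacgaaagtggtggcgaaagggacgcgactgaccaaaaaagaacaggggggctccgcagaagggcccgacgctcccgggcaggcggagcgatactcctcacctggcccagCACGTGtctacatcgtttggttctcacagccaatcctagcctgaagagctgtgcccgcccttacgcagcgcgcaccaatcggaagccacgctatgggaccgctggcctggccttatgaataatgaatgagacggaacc

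The D-box, spelled TTATGTAA or TTACGTAA, was present at Per3 alone of the 9 genes: a pair of TTATGTAA matches lies 205 to 198 and 158 to 151 bases before the start. The 57.4-fold summit of Per3 lies between them, 33.5 bp from the first and 13.5 bp from the second. A D-box was present in 1.21% of protein-coding genes with a listed start. Its bases at chr4:151044666-151044915 (minus strand, GRCm38) are shown with both D-boxes in capitals.
Per3: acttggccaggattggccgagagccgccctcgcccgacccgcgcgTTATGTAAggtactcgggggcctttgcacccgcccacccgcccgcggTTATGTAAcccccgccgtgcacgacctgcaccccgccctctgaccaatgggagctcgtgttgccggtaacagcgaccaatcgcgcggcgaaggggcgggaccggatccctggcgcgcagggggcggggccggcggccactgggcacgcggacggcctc

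The cyclic AMP response element TGACGTCA was present at Hlf alone, 9 to 2 bases before the start and 19.5 bp from the 13.2-fold summit, and in 2.58% of protein-coding genes. The sequence at chr11:90390918-90391167 (minus strand, GRCm38) is shown with that element in capitals.
Hlf: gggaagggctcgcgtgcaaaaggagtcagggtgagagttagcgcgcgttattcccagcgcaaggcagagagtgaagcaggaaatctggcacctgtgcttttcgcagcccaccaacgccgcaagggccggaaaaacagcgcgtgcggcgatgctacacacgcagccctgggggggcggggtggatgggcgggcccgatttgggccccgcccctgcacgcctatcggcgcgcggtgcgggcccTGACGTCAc

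At Arntl neither E-box form was found in the start windows, whereas CCAAT boxes, sites of the factor NF-Y, were repeated. The 250 bases before its first start hold 7 of them, all on the opposite strand and so read as ATTGG, and 1 lies 6 bp from the 67.2-fold summit. They are shown in capitals at chr7:113207215-113207464 (plus strand, GRCm38). The core of the ROR and REV-ERB element, TAGGTCA, was found at Arntl alone, 30 to 36 bases after the second start, and in 2.74% of protein-coding genes.
Arntl, start 1: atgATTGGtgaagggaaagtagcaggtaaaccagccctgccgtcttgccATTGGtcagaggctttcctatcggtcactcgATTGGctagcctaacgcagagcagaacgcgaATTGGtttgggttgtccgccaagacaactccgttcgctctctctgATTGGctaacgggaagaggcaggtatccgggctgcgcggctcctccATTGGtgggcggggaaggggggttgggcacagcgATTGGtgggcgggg

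CCAAT was present at 8 of 9 genes, all but Hlf, against 42.7% of protein-coding genes, and the Sp1 site GGGCGG at all 9, against 49.8%. The related E-box CACGTT was present at Cry1 and Cry2, 2 of 9, against 5.55%. The AP-1 site TGANTCA was found in none of the 14 windows, against 8.19% of protein-coding genes. Set against the 13389 coding start windows with a summit within 1000 bp, GGGCGG was present in 13 of the 14 windows and in 64.6% of the open ones, and CCAAT in 11 of 14 and in 37.9%. CACGTG was present in 4 of 14 windows and in 10.0% of the open ones, and CACGTT in 2 of 14 and in 5.33%. The others were each present in 1 of 14, except AP-1 in none, against open shares of 0.642% for the D-box, 1.81% for TAGGTCA, 3.11% for TGACGTCA and 5.2% for AP-1. CACGTG and CACGTT cannot match the same bases, but GGGCGG can overlap a CCAAT box, as it does at Cry1, and windows of neighbouring starts of Arntl and of Clock overlap each other. A match is not a bound site, and letters missing from these windows can stand elsewhere in the gene.

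**Figure D2:**
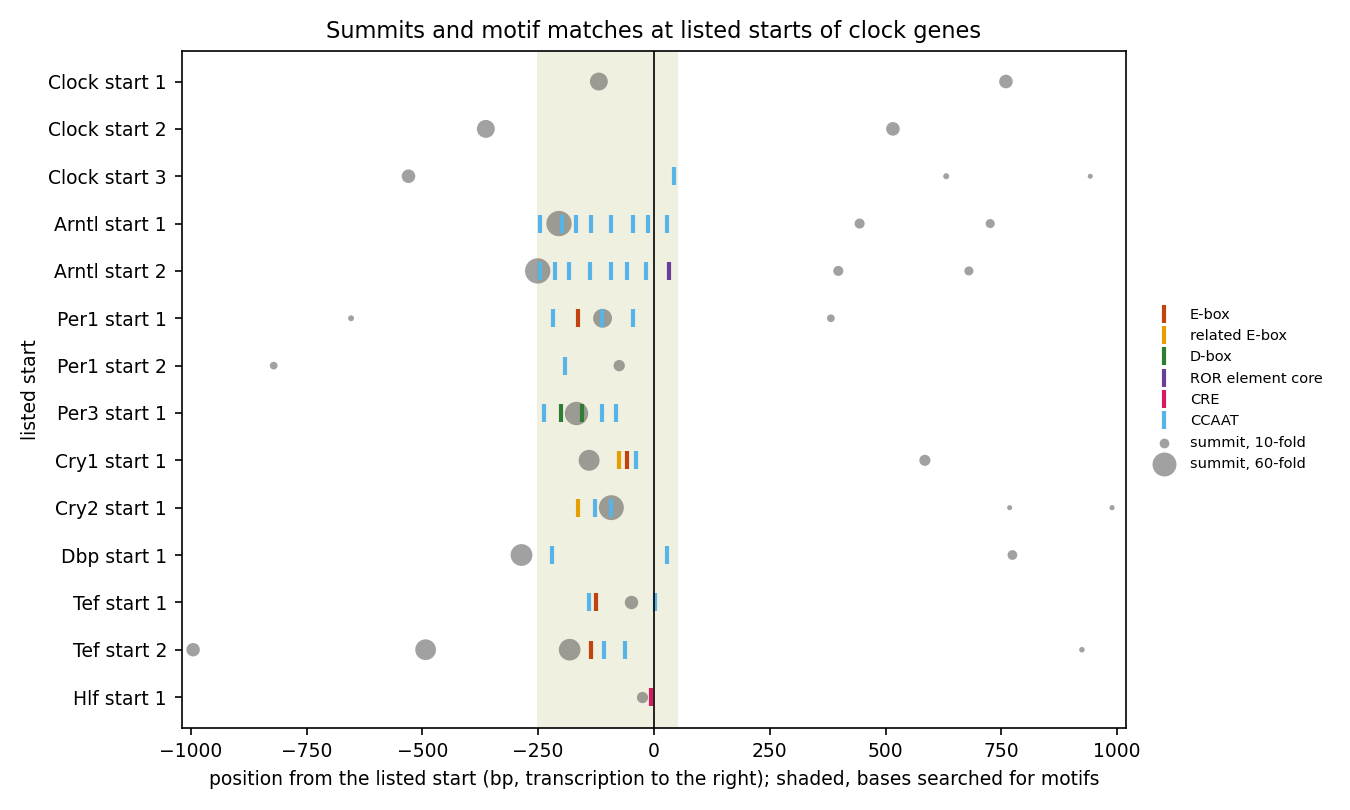
Summits (grey, area proportional to fold enrichment) and matches to 6 motifs (ticks) are plotted by their position from each of the 14 listed starts (horizontal axis, bp; transcription runs to the right). The strongest summit of each gene's starts sits left of the start, at 25 to 286 bp, and the bases searched for motifs are shaded.

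The 2 activator genes differed in their number of regions, 9 at Clock and 40 at Arntl. Clock (NCBI Gene 12753, chromosome 5, 76209868 to 76305603), the histone acetyltransferase partner of the pair, had 7 of its 9 regions under 5-fold. For each count under 5-fold here and below, the median of all regions in the list was 4.99-fold. The openness of Clock lay in 2 neighbouring regions at the high end of the gene. The first, chr5:76303394-76305554, held summits of 33.7-fold and 19.5-fold, 119 bp before the first listed start and 530 bp before the third. The second, chr5:76305631-76307113, had 29.2-fold (25.7 to 33.0) and lies just outside the gene. The noncoding gene Gm7467 has an end 35 bp from the 33.7-fold summit, so that this summit cannot be given to Clock alone. No other region of Clock exceeded 4.29-fold, although the gene spans 95.7 kb.

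Arntl (NCBI Gene 11865, chromosome 7, 113178471 to 113314126) had 40 regions, the most of the 10 genes. Of these 27 had a summit in the gene or within 1000 bp, or 1.96 per 10 kb, and 39 were away from coding ends, at the 99.6th percentile of protein-coding genes. The number away from ends was 11 when ends of noncoding genes could also claim a region. Of all 40 regions, 10 were at or above 10-fold and 16 were under 5-fold. For each count at or above 10-fold here and below, the upper quartile of all regions in the list was 11.0-fold. The 67.2-fold region, chr7:113206337-113208699, held both listed starts, 28.8 kb inside the outer bound that the gene table gives. At that outer bound itself was a separate summit of 27.0-fold (23.7 to 30.7). Between the outer bound and the starts lay a region of 26.2-fold (22.9 to 29.8) at chr7:113185193-113187210 and 1 of 16.7-fold. Beyond the starts the gene was open again in chr7:113259833-113263509, a region of 3677 bp with 4 summits of up to 29.3-fold (25.8 to 33.2), which overlaps the noncoding gene Gm33721. Further summits of 17.3-fold, 14.1-fold and 13.8-fold lay within 20 kb of it. Outside the gene, the strongest region was 20.6-fold (17.7 to 23.9), 56.3 kb below the outer bound, and it overlaps another gene, 4930543E12Rik.

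**Figure D3:**
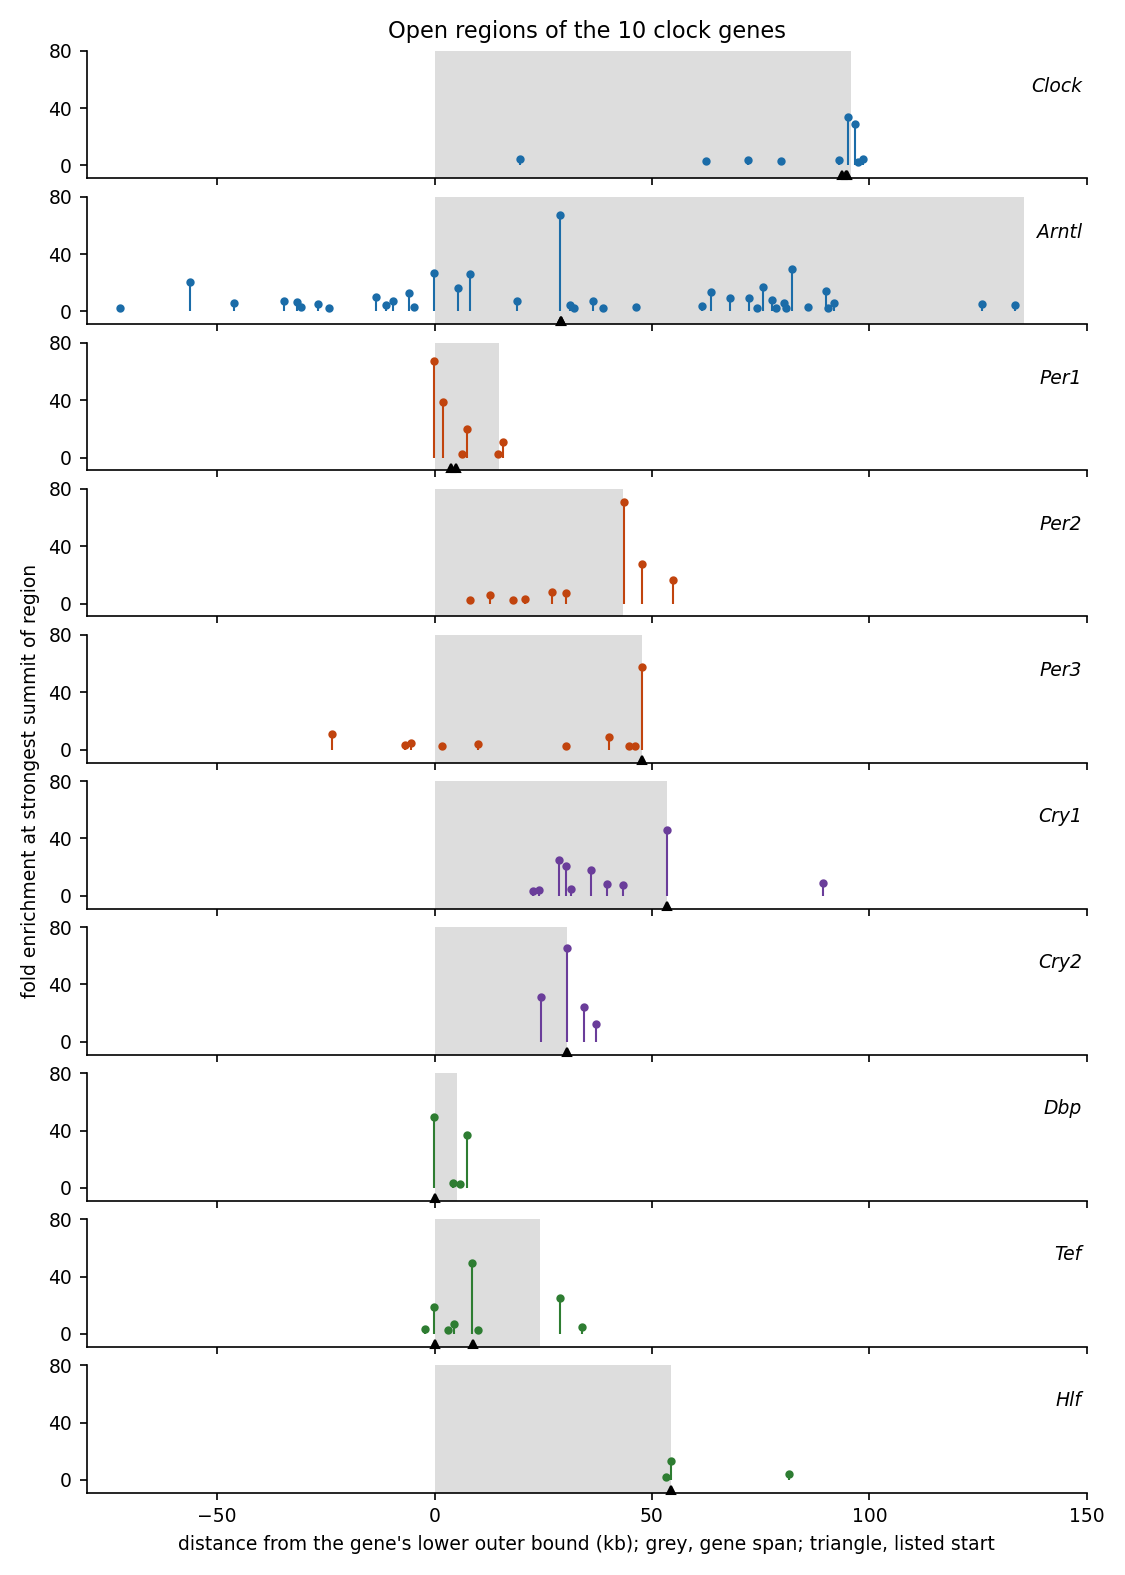
Each panel shows the regions of 1 clock gene by their distance from the lower outer bound of the gene (horizontal axis, kb) and the fold enrichment of their strongest summit (vertical axis); grey marks the gene and triangles the listed starts. Arntl has 40 regions spread inside and below the gene, whereas Clock has 2 regions above 20-fold at its high end and Hlf none.

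The period genes encode the PER repressors, and all 3 were strongly open at 1 end. Per1 (NCBI Gene 18626, chromosome 11, 69095108 to 69109965) spans 14.9 kb and had 6 regions, 4 of them at or above 10-fold. Its strongest summit, 67.0-fold in chr11:69094202-69096292, lay 54 bp from the outer bound and 3895 bp before the first listed start. The next region, chr11:69096410-69100627, is 4218 bp wide with 6 summits and holds both listed starts. Its summits reached 38.7-fold (34.7 to 43.1) at 1849 bp and 37.4-fold (33.5 to 41.8) at 111 bp before the first start, and 13.4-fold (11.1 to 16.1) at 75 bp before the second. The intervals of 38.7 and 37.4 overlap, and both lie below that of 67.0. A region of 19.8-fold (17.0 to 23.0) followed inside the gene. Beyond the other end was a region of 10.7-fold that overlaps 2 tRNA genes.

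Per2 (NCBI Gene 18627, chromosome 1, 91415977 to 91459351) had the widest region of the 10 genes, chr1:91453657-91461011, with 7355 bp and 11 summits, wider than 99.9% of all regions. The 71.0-fold summit lay 149 bp outside the high end of the gene. A second summit of 39.1-fold (35.0 to 43.5) lay 2765 bp inside that end, and summits of 21.4-fold and 13.1-fold stood between them. Outside the gene, 4295 and 11567 bp from the high end, were regions of 27.9-fold (24.5 to 31.7) and 16.7-fold (14.1 to 19.6). The 6 regions farther inside the gene reached 8.35-fold at most, and no summit was called at the low end. The widest region and the 8.35-fold and 7.65-fold regions overlap another gene, Gm35591. That gene has a listed start within 1000 bp of the 8.35-fold summit.

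Per3 (NCBI Gene 18628, chromosome 4, 150997018 to 151044707) had 10 regions, of which 7 were under 5-fold. Its 57.4-fold region, chr4:151043323-151045594, lay at the high end, 168 bp before the listed start. The coding gene Gm38529 has an outer end 20 bp from that summit, so the value cannot be given to Per3 alone. No other summit of Per3 passed 11.0-fold, the value of a region 23.6 kb below the gene. A pair of weak regions inside Per3 was nearer to an end of Uts2, which overlaps it.

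The cryptochrome genes encode the CRY repressors, the partners of PER. Cry2 (NCBI Gene 12953, chromosome 2, 92403646 to 92434085) had 4 regions, all at or above 10-fold. The 65.2-fold summit lay 92 bp before the start in chr2:92431134-92435402, a region of 4269 bp with 7 summits. Flanking it were regions of 31.3-fold (27.7 to 35.3) inside the gene and of 24.1-fold (21.0 to 27.6) and 12.2-fold (10.0 to 14.7) outside the gene. Both the 65.2-fold and the 31.3-fold region overlap the noncoding gene D930015M05Rik. Cry1 (NCBI Gene 12952, chromosome 10, 85131700 to 85185054) had 10 regions and the weaker promoter, 45.9-fold at 140 bp before the start, with an interval below that of Cry2. It had more openness within the gene: 8 regions lay inside it away from coding ends, led by 24.6-fold (21.4 to 28.1), 20.4-fold (17.5 to 23.6) and 17.9-fold (15.2 to 20.9) in the stretch 17383 to 24711 bp from the outer end at the start. At a −log10 q of 10 or more, 4 regions were counted for Cry2 and 9 for Cry1.

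Among the PAR bZIP genes, the strongest summit in the gene or within 1000 bp was weaker at Hlf than at Dbp and Tef. Read at the outer ends alone, Dbp stood at the 90.5th percentile of protein-coding genes, Tef at the 59.3rd and Hlf at the 53.7th. Dbp (NCBI Gene 13170, chromosome 7, 45705100 to 45710203), a classical target of CLOCK and BMAL1, spans 5.1 kb and was covered from its start over most of its length by chr7:45703676-45708809, a region of 5134 bp with 6 summits. Besides the 49.7-fold summit, 286 bp before the start, this region held 5 summits between 9.97-fold and 21.1-fold. The coding gene Car11 has an end 274 bp from the strongest summit. A region of 37.0-fold (33.0 to 41.3) lay 2401 bp beyond the other end of Dbp, inside the overlapping neighbour Sphk2, and its assignment to Dbp rests on distance alone.

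Tef (NCBI Gene 21685, chromosome 15, 81802673 to 81826863) had 2 listed starts of unequal openness. The second start, inside the gene, had 49.2-fold at 182 bp before it and a further summit of 45.0-fold (40.6 to 49.7), in chr15:81810030-81812489. The first had 19.0-fold (16.2 to 22.1) at 50 bp before it, below the second beyond the intervals, and that summit lies 10 bp from an end of the noncoding gene Gm17597. A region of 25.04-fold (21.8 to 28.6) lay 4723 bp beyond the far end of the gene.

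Hlf (NCBI Gene 217082, chromosome 11, 90336535 to 90390917) had 3 regions, the fewest. The promoter region was 526 bp wide with 1 summit of 13.2-fold, 25 bp before the start, and the other 2 regions had 2.32-fold and 4.17-fold. Over its 54.4 kb Hlf had 0.355 regions per 10 kb, whereas Cry1, of similar length, had 1.63.

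Seen together, the regions of the 10 genes ranged from 2.09-fold to 71.0-fold with a median of 6.26-fold, against 4.99-fold for all regions in the list. Of the 103, 22 were at or above 20-fold and 45 were under 5-fold. Shares of all regions at these lines were not computed, but their median of 4.99-fold lies close to the lower line. Upper quartiles were 17.0-fold for the 103 regions and 11.0-fold for all regions. Regions of 3000 bp or more numbered 5 of 103, at Arntl, Per1, Per2, Cry2 and Dbp, against 1.55% of all regions, and 4 had 6 or more summits, against 1.07%. Away from coding ends there were 86 regions, and every one of the 10 genes had at least 1, as had 69.6% of protein-coding genes. The median number per gene was 7, against 2 for all protein-coding genes. There were 7 or more at 6 of the 10, against 18.9%, but that line is the median of these same genes. Their count above it therefore follows in part from the choice of line. Gene length bears on the number of away regions, since the median span was 45.5 kb for the clock genes and 17.3 kb for all protein-coding genes. Summed over genes, there were 1.43 regions per 10 kb of gene and flank in the clock genes and 0.688 in all protein-coding genes. In the 18 other clock genes described below there were 0.71. Arntl holds 27 of the 75 regions behind the first of these densities. Regions did not rise in step with length: the median was 1 for genes of 5 to 10 kb and 8 for genes of 320 to 1000 kb. Summed densities are thus lowered by very long genes, and the longest of the 10 clock genes spans 135.7 kb. The number of away regions also depends on how it is made: it was 55 of 86 when records were kept at a −log10 q of 10 or more, and 44 when ends of noncoding genes could also claim a region, with a median of 3 per gene in both cases. The matching medians of all protein-coding genes are not given, so this 3 is not to be set against the 2 above.

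**Figure D4:**
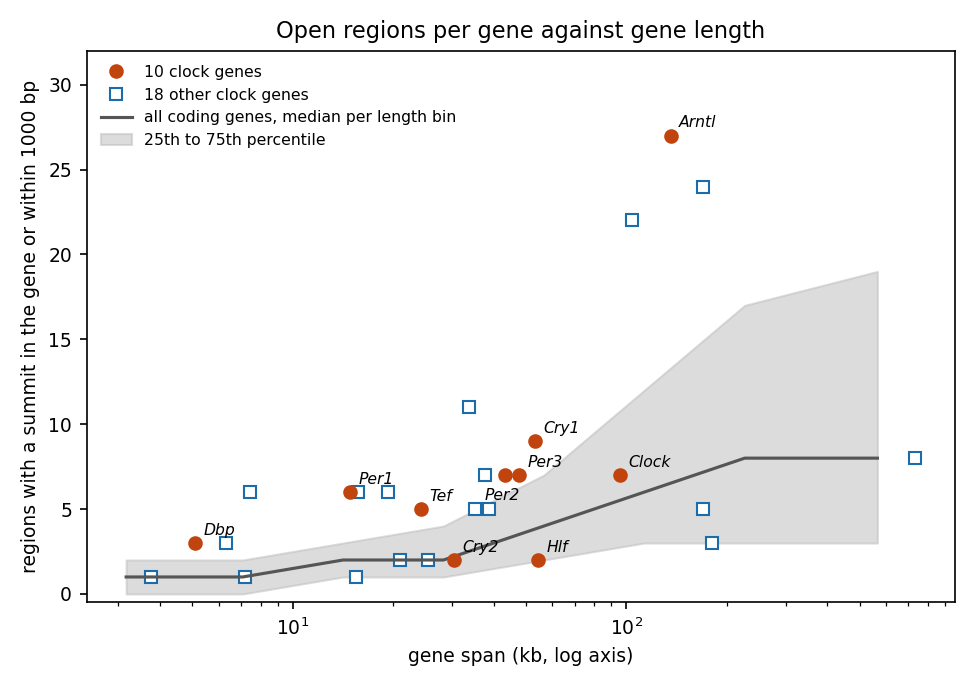
The number of regions with a summit in the gene or within 1000 bp (vertical axis) is plotted against gene span (horizontal axis, kb, log scale) for the 10 clock genes (circles) and 18 other clock genes (squares), over the median and quartiles of all protein-coding genes in bins of length. Arntl (27 regions) stands above the 75th percentile of 12 for genes of 80 to 160 kb, while Hlf (2) lies at the 25th percentile for genes of 40 to 80 kb.

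The other genes of the clock were read from a list of 18. A summit at an outer end was found in 16 of them, and the median was 32.3-fold, between that of the 10 genes above and that of all protein-coding genes; the difference was not tested. The highest was Nr1d2 (REV-ERBβ, a repressor of Arntl) with 83.0-fold (77.0 to 89.3), above Per2 beyond the intervals. Btrc, the ubiquitin ligase subunit that acts on PER, had 61.4-fold (56.3 to 66.9), and Fbxl21, an F-box protein that acts on CRY, 47.8-fold (43.3 to 52.6). Rora, an activator of Arntl, and Bhlhe41, a repressor that binds E-boxes, had no summit at an outer end. Inside the gene Rora had 15.8-fold and Bhlhe41 2.55-fold.

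Pairs of related genes were compared, chosen after their values were seen. Nr1d1 (REV-ERBα) had 44.8-fold (40.4 to 49.4) at its end and 62.8-fold (57.7 to 68.4) within the gene or 1000 bp of it, both below the 83.0-fold that Nr1d2 had on either measure. The noncoding gene Gm31862 has an end 55 bp from the 44.8-fold summit, which therefore cannot be given to Nr1d1 alone. Bhlhe40 had 47.0-fold (42.5 to 51.8) at its end and 22 regions away from coding ends, against 3 such regions for Bhlhe41. The noncoding gene 0610040F04Rik has an end 490 bp from the 47.0-fold summit of Bhlhe40. For the relatives of Clock and Arntl the result depended on the measure. At the outer ends Clock had 33.7-fold, against 23.3-fold (20.2 to 26.7) for Npas2, whereas in the gene or within 1000 bp Clock had 33.7-fold (30.0 to 37.8), against 39.7-fold (35.6 to 44.1) for Npas2, with overlapping intervals. Arntl had 27.0-fold (23.7 to 30.7) at its outer end, against 25.4-fold (22.1 to 29.0) for Arntl2, again with overlapping intervals, and in the gene or within 1000 bp 67.2-fold, against the same 25.4-fold. Regions in the gene or within 1000 bp numbered 7 in the 95.7 kb of Clock, against 24 in the 169.5 kb of Npas2. They numbered 27 in the 135.7 kb of Arntl, against 5 in the 38.8 kb of Arntl2.

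**Figure D5:**
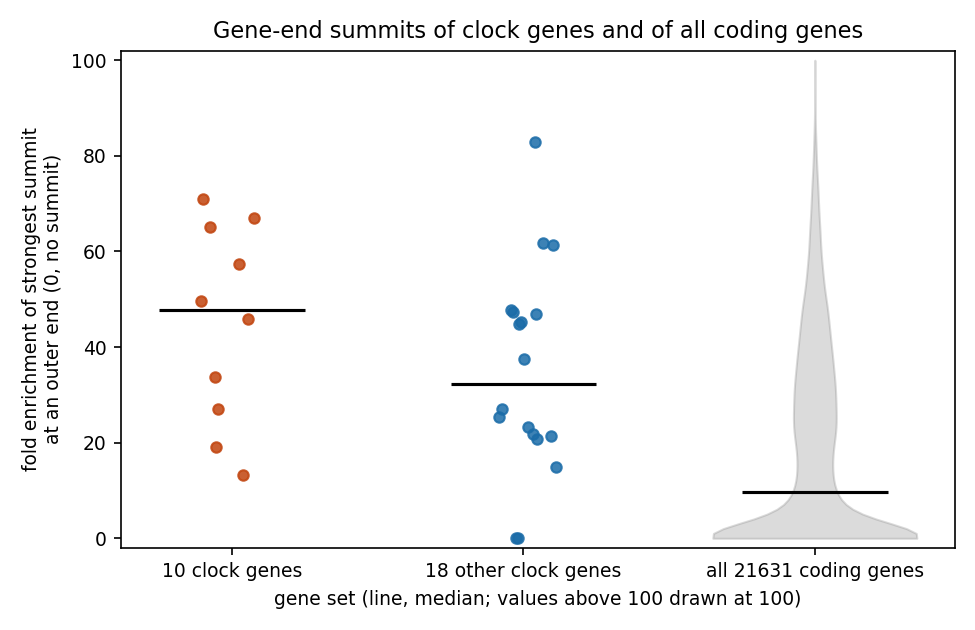
The fold enrichment of the strongest summit at an outer gene end (vertical axis; 0 without a summit) is plotted for the 10 clock genes, for 18 other clock genes and, as a density, for all 21631 protein-coding genes. Horizontal lines are medians, 47.8, 32.3 and 9.62, and Rora and Bhlhe41 are the 2 other clock genes at 0.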

How the data were processed

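Bulk ATAC-seq of 4 libraries, 1 in each group, is represented by 1 peak list for the series. The submitters' processing notes name Bowtie2, MACS2 and the build mm10, and the deposited record names also carry MACS2. Versions, thresholds and which libraries were used for peak calling are not given in those notes. The deposited score equals the −log10 q times 10, truncated, in 100% of 157922 records. The deposited fold enrichment is a linear ratio at each summit. The authors' −log10 p and −log10 q were at least 3.02 and 1.51.

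All fold values were whole multiples of 1 constant (largest departure of a pileup from a whole number 0.000218), and the deposited −log10 p below 100 matched the upper tail of a Poisson distribution of mean 7.63 to within 7.86e-06. The fold is therefore pileup plus 1 over background plus 1, with no correction for copy number or mappability. The labels do not say whether fragments, reads or read ends were piled up.

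Genes came from a RefSeq table of GRCm38.p6 with outer bounds but no exons, so exonic and intronic positions were not told apart; starts and sequences came from a second RefSeq table of the same build. All 10 genes and all 18 other clock genes matched the gene table. Summits were placed by position, and a region away from ends by its strongest summit. No p-value was computed. Named were all 10 genes, the 4 strongest other clock genes and those without a summit at an end (1 of these and 1 marker are not reported here), the 8 strongest away regions, and the genes with the most and fewest regions. The 10 genes, the lists and the motifs were chosen with earlier results of these data known; the use of listed starts, of the lines at 40-fold, 20-fold, 10-fold and 5-fold and of the region widths was decided after the values were seen. Alternatives were windows of 500 and 2000 bp, a limit of 25 kb, ends of all annotated genes, a −log10 q of at least 10, overlap in place of summits, midpoints in place of strongest summits, the bases before the start alone and a wider E-box. The search and placement steps were tested on simulated data. Python 3.11.15, numpy 2.4.6, pandas 2.3.3, scipy 1.17.1 and matplotlib 3.10.9 were used.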

Additional observations from a re-analysis of the deposited data

How the results depend on the processing

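All 10 clock genes had a summit at an outer end under the alternatives run for it, except that a window of 500 bp gave 9, without Clock. All 10 had a summit in the gene under each alternative run. The medians of their strongest summit stayed at 47.8-fold at the outer ends and 53.6-fold in the gene or within 1000 bp. For the other clock genes the median at the outer ends was 29.7-fold to 33.9-fold, against 32.3-fold. Counts of regions moved more. With records at a −log10 q of at least 10, the regions of the 10 genes numbered 68, the regions away from gene ends 55, their median per gene 3, and those of the other clock genes 89. With a limit of 25 kb, 55 away regions were assigned to the 10 genes and 85 to the other clock genes. When the nearest end could be that of any annotated gene, these counts were 44 and 80, and the median per gene was 3. Requiring regions to lie over 1000 bp from the ends of all annotated genes, a setting chosen after seeing the data, gave 101 regions in all and 83 away regions. Read at the outer ends, Arntl was 27.0-fold in place of 67.2-fold and Tef 19.0-fold in place of 49.2-fold. No paired analysis was possible because the peak list holds no value for a single library. No library could be left out, for the same reason. The limits are those of a single list, for which the libraries used are not given: weak regions, at pileups near 17, depend on the threshold, a summit shared by neighbouring genes counts for each, and assignment by distance does not show which gene a region serves.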
